A study of Mus musculus with 6 samples.

Results

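The 58 genes described here encode the proteins that prepare, carry out and follow the copying of DNA in S phase. Also included are regulators that switch these genes on or off. All 58 were chosen by name from the known replication machinery, with earlier results of these data known. Each of the 58 matched exactly 1 of the 54884 entries in the gene expression table. Their mRNA was read from poly(A)-selected sequencing libraries of mouse neural stem cells. These precursors of neurons and glia were isolated from C57BL/6J hippocampus at embryonic day 14 and used at culture passages 3 to 8. The control group of 3 libraries came from cells given a lentivirus with the siRNA circCon. The other 3 libraries came from cells given a lentivirus with an siRNA against circHIPK2, a circular RNA made from the Hipk2 gene. All 6 thus carried a lentivirus, and the 2 groups had the same strain, tissue, embryonic day and range of passages. The passage of each library is not stated. Nothing states that replicates were separate cultures, so the spread between libraries may be technical.

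A cell copies its genome exactly once per division. In G1 the origin recognition complex with Cdc6 and Cdt1 loads the ring of Mcm2 to Mcm7 onto origins, a step called licensing. In S phase Cdc45 and the GINS complex turn the ring into an active helicase, primase and the polymerases copy the strands, and the sliding clamp PCNA holds the polymerases on DNA. Most of these genes are switched on at the G1/S boundary by E2F transcription factors, so their mRNA is abundant in dividing progenitors and low in resting cells.

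As a group the replication genes had lower mRNA levels in the circHIPK2 siRNA libraries on the values as deposited, but no single gene passed the test. The siRNA mean lay below the control mean for 57 of 58 genes, all but Clspn. The siRNA mean was lower by a median of 18.3% over the 58 genes, and by at most 32.0%, for Chaf1b. After adjustment over all 13702 genes tested, 0 of 58 genes were called higher or lower at an adjusted p below 0.05 (limma with Benjamini-Hochberg adjustment, lowest adjusted p = 0.132 for Rfc4), against 0.139% of all genes called lower and 0.117% called higher. At an unadjusted p below 0.05, 27 members were lower and 0 higher, against 15.5% and 1.83% of all genes tested. That count of 27 became 13 without control library 1, against 8.8% of all genes, and 10 without control library 3, against 10.2%. It rose to 36 without control library 2, against 14.6%. Without siRNA library 1, 2 or 3 it was 19, 28 or 21, against 11.6%, 21.6% and 9.21%. With limma's library weights, which give less weight to more variable libraries, 5 members were called lower (Prim1, Rfc4, Chaf1b, Pcna and Tipin), against 1.93% of all genes. In bulk RNA, fewer cells in S phase and less mRNA per cell cannot be told apart.

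The shift has to be read against that of all genes. FPKM scales the fragments of a gene by transcript length and by the mapped fragments of the library, and fold changes are given on the scale log2(FPKM + 1), for genes with a mean of at least 1 FPKM. On this scale the median of all genes tested was −0.12 and that of the replication genes −0.27, a difference of −0.15. The log2 fold change was below 0 for 58 of 58 members, against 77.1% of all genes, and lay below the median of all genes for 54. The 4 members above that median were Clspn, Ccne1, Gins4 and Slbp. Once libraries were centred on one another by median-of-ratios scaling, the median of all genes was −0.01, 56 members were below 0 and the list lay at −0.14 relative to all genes. With that scaling 14 members were lower and 0 higher at an unadjusted p below 0.05, against 7.82% and 5.81% of all genes, and 0 were called (0.11% of all genes called lower and 0.0657% higher). In the siRNA libraries 3.24% to 19.9% of all FPKM was taken by 9 entries at or varying with the ribosomal RNA locus, against 0.32% to 0.58% in the controls. These entries were then left out and each library rescaled to its former FPKM sum, not by mapped fragments. The factors were 1.13, 1.03 and 1.25 for siRNA 1 to 3 and 1.00 to 1.01 for the controls. Whether this corrects too far was not tested. On these values the median of all genes was 0.03 and that of the replication genes −0.11. The list thus lay at −0.14 relative to all genes and 50 members were below 0. With those entries left out 6 members were lower and 0 higher at an unadjusted p below 0.05, against 4.35% and 8.06% of all genes. The part of the ribosomal RNA share in the lower replication mRNA was not tested beyond these values.

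**Figure D1:**
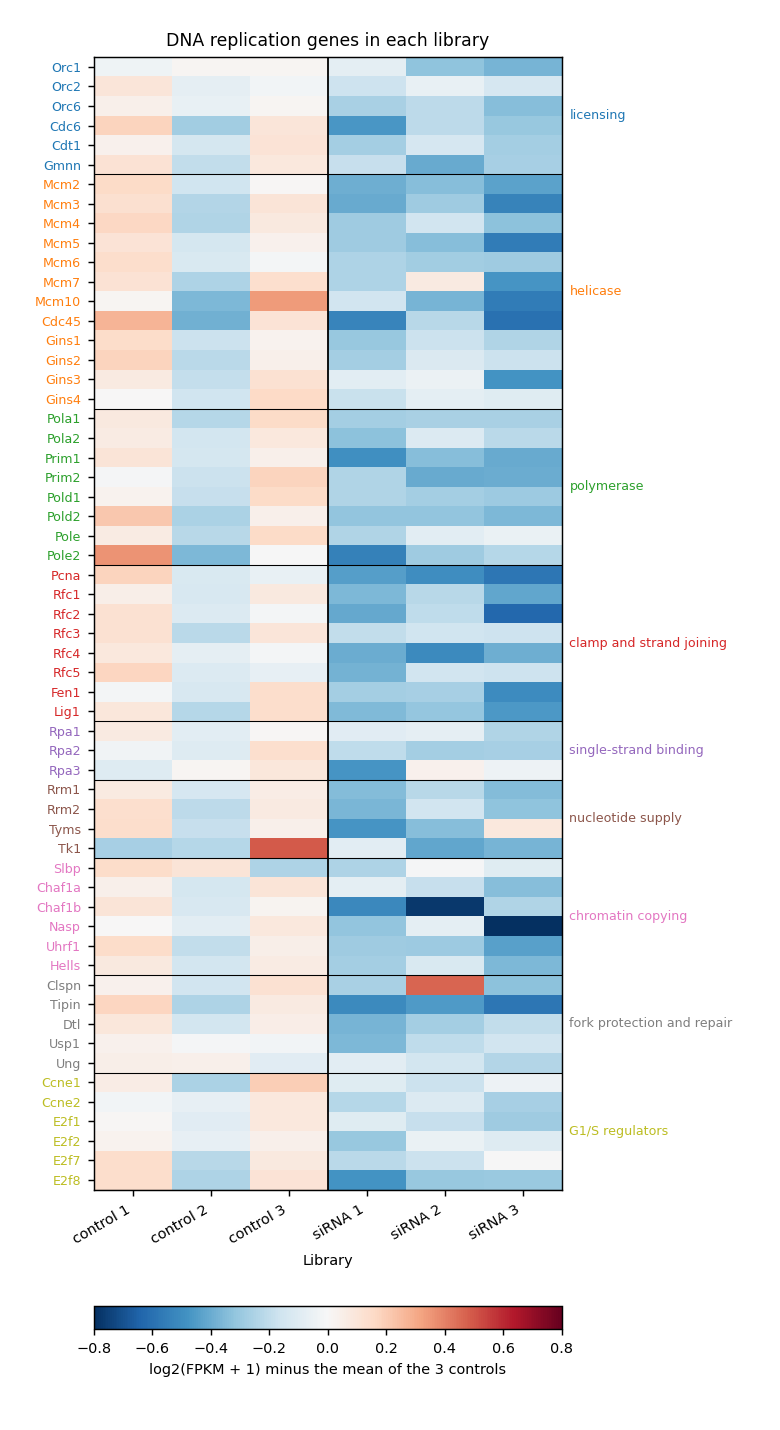
Each row is 1 of the 58 genes, sorted by role, and each column 1 library; colour gives log2(FPKM + 1) minus the mean of the 3 controls, blue for lower. The siRNA columns are mostly blue, and control library 2 is also blue for most genes: it held the lowest control value for 52 of 58.

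The libraries were not evenly spread. Control library 2 had the lowest of the 3 control values for 52 of 58 members, against 49.7% of all genes tested. The median member, as log2(FPKM + 1) minus the control mean and relative to the same median over all genes, stood at 0.07, −0.11 and 0.05 for controls 1 to 3. For siRNA libraries 1 to 3 it stood at −0.15, −0.18 and −0.10. Relative to all genes, control library 2 therefore lay among the siRNA libraries, just under siRNA library 3, and the groups overlapped. The same order held with median-of-ratios scaling (−0.11 for control library 2 and −0.09 for siRNA library 3) and without the ribosomal RNA locus entries (−0.11 and −0.09).

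**Figure D2:**
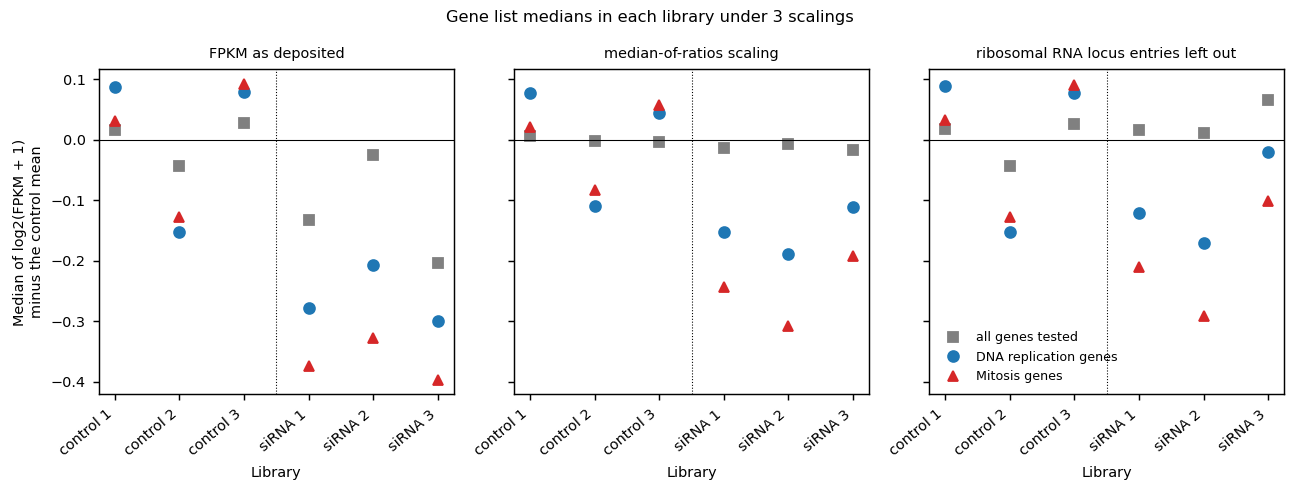
Points give the median over genes of log2(FPKM + 1) minus the control mean in each library, for all genes tested (squares), the 58 replication genes (circles) and 47 mitosis genes (triangles), under 3 scalings. In each panel the circles of control library 2 and the siRNA libraries lie below the squares, while the circles of control libraries 1 and 3 lie above them.

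On the values as deposited, the 3 siRNA libraries lay entirely below the 3 controls for 29 of 58 members and entirely above for 0, against 22.1% and 2.65% of all genes tested. With median-of-ratios scaling 18 lay entirely below and 0 above, against 11.4% and 8.96% of all genes. Without the ribosomal RNA locus entries only 4 lay entirely below (Pcna, Rfc2, Rfc4 and Tipin), against 6.71% of all genes, a share close to the background. On those values 0 lay entirely above, against 12.5%. Of the 29, Orc1, Gins1, Pola1, Prim2, Pold1, Pold2, Rfc5, Chaf1b, Dtl, Usp1, E2f1 and E2f8 overlapped with median-of-ratios scaling. Nasp overlapped as deposited but not with that scaling. For each role below, overlap is given on the values as deposited unless another scaling is named. For 3 libraries against 3 an exact two-sided permutation test cannot give a p below 0.1, the value of every member whose groups do not overlap. On the values as deposited, the count below was 29, 52 or 31 without control library 1, 2 or 3. The shares of all genes were 27%, 36.4% and 27.5%. Without siRNA library 1, 2 or 3 it was 34, 42 or 30, against 27%, 42.4% and 24.1%. Control library 2 held the lowest control value for 52 of 58 members, so leaving it out favours this count.

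The levels, which FPKM gives per length of transcript, ran from 1.24 FPKM for Orc1 to 116 FPKM for Pcna as means over the 6 libraries, and 32 of 58 members had a mean of at least 10 FPKM. The coefficient of variation had a median of 11.6% over the control and 7.82% over the siRNA libraries. It reached 34.2% for Tk1 in the controls and 40.4% for Nasp with the siRNA. Members that are listed here with values in every library are, for each role, the most abundant, the lowest and the highest by log2 fold change.

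**Figure D3:**
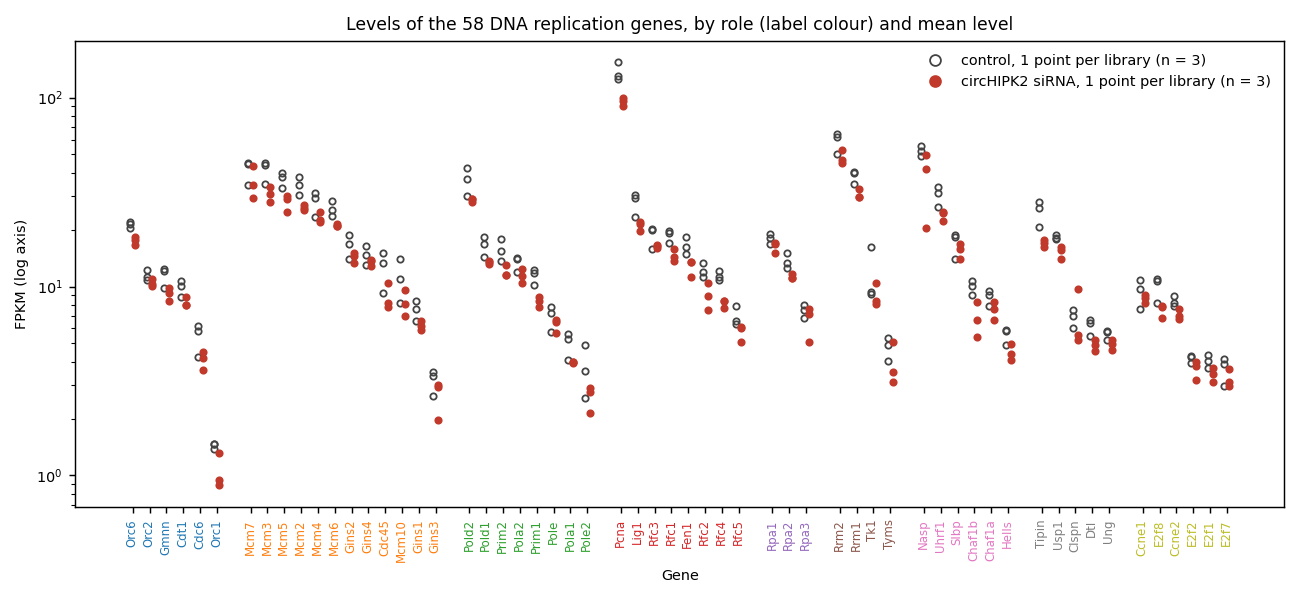
Points give the FPKM of each gene in each library on a log axis, open for the 3 controls and filled for the 3 siRNA libraries, with genes grouped by role and ordered by mean level. Pcna stands highest at 90.7 to 154 FPKM and Orc1 lowest at 0.886 to 1.47 FPKM.

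Some promoters of these genes hold letters of the E2F motif. In 4 of the roles, the most abundant gene with a match before the start of transcription is shown. Promoter sequences, reaching 250 bases before and 50 bases after each start, came from RefSeq (build GRCm38.p6), with 55 promoters for 47 of the 58 members. The E2F motif was searched on both strands as the 4 words TTTCCCGC, TTTCGCGC, TTTGCCGC and TTTGGCGC, and matches on opposite strands may overlap. It was found in 19 of 55 member promoters (34.5%), against 2.27% of all 32851 promoters and 4.17% of the promoters of genes tested here. Of 25 matches, 15 were centred within 50 bases of the start. The sequences below are the 250 bases up to the start, 5′ to 3′ on the strand of the gene, with the E2F match in capitals. That of Cdc6 (chr11:98907901-98908150, plus strand) begins 138 bases before the start, and that of Mcm7 (chr5:138171884-138172133, minus strand) 165 bases before it. That of Rfc3 (chr5:151651209-151651458, minus strand) begins 10 bases before the start and that of E2f7 (chr10:110745189-110745438, plus strand) 198 bases before it.
Cdc6: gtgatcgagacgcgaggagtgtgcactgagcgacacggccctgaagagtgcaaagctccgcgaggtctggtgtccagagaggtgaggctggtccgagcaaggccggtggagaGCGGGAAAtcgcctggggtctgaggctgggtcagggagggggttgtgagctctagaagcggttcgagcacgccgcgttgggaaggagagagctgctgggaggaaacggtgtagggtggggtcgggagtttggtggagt
Mcm7: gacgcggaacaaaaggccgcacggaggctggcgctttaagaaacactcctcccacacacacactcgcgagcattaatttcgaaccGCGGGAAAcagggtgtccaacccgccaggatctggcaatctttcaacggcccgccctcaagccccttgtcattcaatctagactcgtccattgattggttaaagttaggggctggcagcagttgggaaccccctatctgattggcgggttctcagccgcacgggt
Rfc3: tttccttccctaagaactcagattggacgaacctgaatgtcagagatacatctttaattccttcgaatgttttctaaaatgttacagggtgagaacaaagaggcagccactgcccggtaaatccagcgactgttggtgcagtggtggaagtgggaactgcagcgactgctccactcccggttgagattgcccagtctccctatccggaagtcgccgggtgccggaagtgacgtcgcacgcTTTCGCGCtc
E2f7: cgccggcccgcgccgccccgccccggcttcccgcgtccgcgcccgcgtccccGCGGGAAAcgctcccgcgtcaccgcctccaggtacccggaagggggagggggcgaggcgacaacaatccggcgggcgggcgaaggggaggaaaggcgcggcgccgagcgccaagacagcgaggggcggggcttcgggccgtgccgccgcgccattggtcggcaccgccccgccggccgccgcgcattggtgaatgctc
The match of Cdc6, Mcm7 and E2f7 is the same word, TTTCCCGC read on the other strand as GCGGGAAA, and that of Rfc3 is TTTCGCGC. A match describes letters and is not evidence of binding. The 19 members with a match had a median log2 fold change of −0.26 and the 28 with a promoter but no match −0.29, so both lay below the median of all genes. Over all genes tested, the 461 with a match had a median of −0.14 and the 8646 without −0.12.

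Licensing genes had a median log2 fold change of −0.26, and all 6 lay below the median of all genes. Orc6, a subunit of the origin recognition complex and the most abundant of them, stood at 21.9, 20.3 and 21.5 FPKM across controls 1 to 3, against 17.5, 18.3 and 16.5 under siRNA 1 to 3. Every siRNA value lay under every control (log2 fold change −0.27 ± 0.09 SE; limma, Benjamini-Hochberg adjusted p = 0.212). Cdc6, the ATPase that recruits the ring to origins, stood at 6.20, 4.25 and 5.82 FPKM across the controls, against 3.61, 4.51 and 4.17 under the siRNA. Its groups overlapped through control library 2 (log2 fold change −0.32 ± 0.14 SE; limma, Benjamini-Hochberg adjusted p = 0.288). Orc2, another subunit of the complex, was nearly level at 12.2, 10.8 and 11.2 against 10.0, 10.9 and 10.3 FPKM, with overlap. Its log2 fold change was −0.12 (SE 0.09), and the sign turned with quantile normalization and without the ribosomal RNA locus entries. Orc1, the least abundant member, had means of 1.44 ± 0.05 and 1.05 ± 0.23 FPKM (SD, n = 3 each).

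Cdt1, which delivers the ring, and Gmnn, whose product geminin binds Cdt1 and blocks relicensing, overlapped between groups. Cdt1 had 9.84 ± 0.94 FPKM in control and 8.25 ± 0.52 in siRNA cells, and Gmnn 11.4 ± 1.42 and 9.16 ± 0.75 FPKM (SD, n = 3 each). The ratio of Gmnn to Cdt1 FPKM was 1.23, 1.11 and 1.13 for controls 1 to 3, against 1.24, 0.94 and 1.17 under siRNA 1 to 3, so the groups overlapped.

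Helicase genes had a median log2 fold change of −0.26, with 11 of 12 below the median of all genes. The 6 genes of the Mcm2 to Mcm7 ring had a median of −0.33. Mcm7, the most abundant, stood at 44.7, 34.6 and 45.3 FPKM across controls 1 to 3, against 34.6, 43.3 and 29.5 under siRNA 1 to 3. Its siRNA library 2 lay within the controls (log2 fold change −0.22 ± 0.16 SE; limma, Benjamini-Hochberg adjusted p = 0.486). In Mcm2, Mcm3, Mcm5 and Mcm6, 4 of the 6 ring genes, every siRNA value lay under every control, against 22.1% of all genes. Their log2 fold changes ran from −0.41 for Mcm3 to −0.27 for Mcm6. The count was 4 with median-of-ratios scaling (11.4% of all genes) and 0 without the ribosomal RNA locus entries (6.71%). Mcm4 overlapped (27.9 ± 4.08 and 23.1 ± 1.53 FPKM; SD, n = 3 each).

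The ring contains 1 copy of each subunit, while the 6 mRNAs differed in level. As a share of the mean FPKM of the 6 genes in the same library, Mcm6 lay at 70.3% to 83.5% and Mcm4 at 77.6% to 87.4% over the 6 libraries, and Mcm7 at 115% to 146%. The value of 146% came from siRNA library 2. Mcm3 made up 119%, 116% and 122% for controls 1 to 3, against 112%, 113% and 112% under siRNA 1 to 3, which did not overlap. This was noticed after the values were seen and was not tested.

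**Figure D4:**
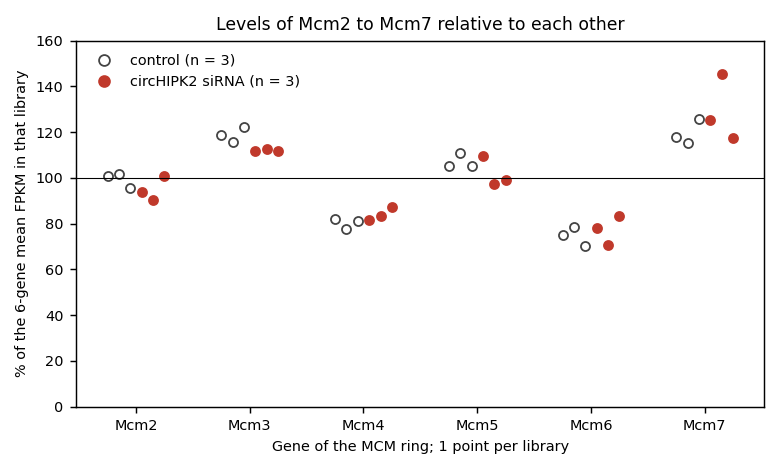
Points give the FPKM of Mcm2 to Mcm7 in each library as a percentage of the mean of the 6 genes in that library, open for controls and filled for siRNA libraries. The 6 genes keep a like order in both groups, with Mcm6 and Mcm4 below the mean and Mcm3 and Mcm7 above it.

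The factors that activate the ring included the member of this role with the largest shift. Cdc45, which joins the ring to form the moving helicase, stood at 15.1, 9.23 and 13.3 FPKM across controls 1 to 3, against 8.23, 10.4 and 7.81 under siRNA 1 to 3. Control library 2 lay within the siRNA range (log2 fold change −0.45 ± 0.18 SE; limma, Benjamini-Hochberg adjusted p = 0.258). Gins4, a subunit of the GINS complex, stood at 14.6, 12.97 and 16.4 FPKM across the controls, against 12.8, 13.8 and 13.6 under the siRNA, with overlap. Its log2 fold change was −0.12 (SE 0.11), and the sign turned with quantile normalization and without the ribosomal RNA locus entries. The other GINS genes lay between −0.24 for Gins1, whose groups did not overlap, and −0.19 for Gins2. Mcm10, which helps to activate the helicase, varied widely among the controls (11.02 ± 2.87 FPKM) and had 8.23 ± 1.30 FPKM with the siRNA (SD, n = 3 each).

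All 8 polymerase genes were under the all-gene median, with a role median of −0.30. Pold2, an accessory subunit of the lagging-strand polymerase delta, stood at 42.2, 30.3 and 37.2 FPKM across controls 1 to 3, against 28.9, 28.9 and 28.0 under siRNA 1 to 3. The siRNA values were tight and under every control (log2 fold change −0.33 ± 0.13 SE; limma, Benjamini-Hochberg adjusted p = 0.244). With median-of-ratios scaling, and without the ribosomal RNA locus entries, the groups of Pold2 overlapped. Prim1, the catalytic subunit of primase, stood at 12.3, 10.2 and 11.7 FPKM across the controls, against 7.84, 8.79 and 8.37 under the siRNA. These did not overlap (log2 fold change −0.41 ± 0.10 SE; limma, Benjamini-Hochberg adjusted p = 0.159). That also held with median-of-ratios scaling, but the groups of Prim1 overlapped without the ribosomal RNA locus entries. Pole, the catalytic subunit of the leading-strand polymerase epsilon, had 7.26, 5.78 and 7.79 FPKM against 5.69, 6.46 and 6.62 FPKM and overlapped. Its log2 fold change was −0.12 (SE 0.12), and the sign turned without the ribosomal RNA locus entries.

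The other polymerase genes lay between these. Prim2, the regulatory primase subunit, Pold1, the catalytic subunit of polymerase delta, and Pola1, that of polymerase alpha, did not overlap between groups, with log2 fold changes of −0.35, −0.27 and −0.26. Pola2 (−0.22) and Pole2 (−0.35), their partner subunits in polymerases alpha and epsilon, overlapped. The controls of Pole2 ranged from 2.58 FPKM in library 2 to 4.88 FPKM in library 1.

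The clamp and strand-joining genes had the lowest role median, −0.36, and their groups did not overlap for 7 of 8, against 22.1% of all genes. The count was 6 with median-of-ratios scaling (11.4% of all genes) and 3 without the ribosomal RNA locus entries (6.71%). Pcna, the sliding clamp and the most abundant member of all, stood at 154, 125 and 130.4 FPKM across controls 1 to 3, against 100.1, 96.1 and 90.7 under siRNA 1 to 3. Every siRNA value lay under every control, by 30.1% in the mean (137 ± 15.6 and 95.6 ± 4.70 FPKM; SD, n = 3 each). This is a log2 fold change of −0.51 (SE 0.11, limma, Benjamini-Hochberg adjusted p = 0.137). The order of the groups also held under both other scalings. A processed pseudogene, Pcna-ps2, may share reads with Pcna. It had 21.02 ± 2.71 FPKM in control and 17.0 ± 0.25 in siRNA cells (SD, n = 3 each).

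The clamp is opened and placed on DNA by replication factor C. Its large subunit gene Rfc1 and the small subunit genes Rfc2, Rfc4 and Rfc5 did not overlap between groups, with log2 fold changes of −0.33, −0.41, −0.43 and −0.23. Rfc3 was the exception, at 20.3, 15.8 and 19.9 FPKM across controls 1 to 3, against 16.1, 16.5 and 16.4 under siRNA 1 to 3. Its siRNA values all lay above control library 2 (log2 fold change −0.17 ± 0.11 SE; limma, Benjamini-Hochberg adjusted p = 0.425). Fen1, the flap nuclease that trims Okazaki fragments, and Lig1, the ligase that seals them, had log2 fold changes of −0.35 and −0.37 and did not overlap.

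The single-strand binding genes, whose products form replication protein A and coat unwound DNA, were nearer to the median of all genes, at −0.16. Rpa1, the large subunit, stood at 19.0, 16.9 and 18.1 FPKM across controls 1 to 3, against 16.8, 17.0 and 15.1 under siRNA 1 to 3, with overlap. Its log2 fold change was −0.13 (SE 0.10), and the sign turned with quantile normalization and without the ribosomal RNA locus entries. Rpa2 stood at 13.3, 12.6 and 15.0 FPKM across the controls, against 11.7, 11.1 and 11.1 under the siRNA, without overlap (log2 fold change −0.25 ± 0.10 SE; limma, Benjamini-Hochberg adjusted p = 0.258). Rpa3, the small subunit, overlapped (7.43 ± 0.58 and 6.63 ± 1.36 FPKM; SD, n = 3 each).

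Nucleotide supply genes had a median log2 fold change of −0.29, and all 4 lay below the median of all genes. Rrm2, the small subunit of ribonucleotide reductase, which makes deoxynucleotides, stood at 64.4, 50.5 and 61.5 FPKM across controls 1 to 3, against 45.2, 52.5 and 46.5 under siRNA 1 to 3. Its groups overlapped between control library 2 and siRNA library 2 (log2 fold change −0.28 ± 0.12 SE; limma, Benjamini-Hochberg adjusted p = 0.281). Rrm1, the large subunit, stood at 40.4, 34.9 and 40.1 FPKM across the controls, against 29.9, 32.7 and 29.9 under the siRNA. These did not overlap (log2 fold change −0.31 ± 0.10 SE; limma, Benjamini-Hochberg adjusted p = 0.208). Tyms, which makes thymidylate, had 5.33, 4.06 and 4.90 FPKM against 3.13, 3.53 and 5.08 FPKM, with siRNA library 3 among the controls (log2 fold change −0.24, SE 0.16). Tk1, the salvage enzyme thymidine kinase, rested on control library 3, at 16.1 FPKM against 9.12 and 9.40 FPKM in the other controls and 8.10 to 10.5 FPKM with the siRNA.

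Chromatin-copying genes had a median of −0.29, with 5 of 6 below the median of all genes. Nasp, a histone chaperone, stood at 52.2, 49.2 and 55.3 FPKM across controls 1 to 3, against 41.8, 49.4 and 20.4 under siRNA 1 to 3. It had the lowest log2 fold change of all members, −0.57, but siRNA library 3 set that value and its SE of 0.28 (limma, Benjamini-Hochberg adjusted p = 0.322). Without that library the log2 fold change was −0.20 (limma, Benjamini-Hochberg adjusted p = 0.527). Slbp, which binds the stem-loop of histone mRNA, stood at 18.8, 18.2 and 14.0 FPKM across the controls, against 14.0, 16.7 and 15.7 under the siRNA, with overlap. Its log2 fold change was −0.12 (SE 0.13), and the sign turned with quantile normalization and without the ribosomal RNA locus entries.

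Chaf1a and Chaf1b encode subunits of the chromatin assembly factor, which places histones on new DNA. Chaf1b had 9.97 ± 0.87 and 6.78 ± 1.44 FPKM (SD, n = 3 each), 32.0% lower in the mean and without overlap, and Chaf1a 8.77 ± 0.83 and 7.50 ± 0.78 FPKM with overlap. With median-of-ratios scaling, and without the ribosomal RNA locus entries, the groups of Chaf1b overlapped too. Uhrf1, which guides DNA methylation to newly copied strands, had 30.4 ± 3.75 and 23.8 ± 1.43 FPKM and did not overlap. Hells, a chromatin remodeller, had 5.55 ± 0.57 and 4.505 ± 0.45 FPKM and overlapped. The difference between Chaf1a and Chaf1b was not tested.

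Fork protection and repair genes had a median of −0.24 and ran from −0.51 for Tipin to −0.04 for Clspn, the highest of all members. Tipin, which with Timeless stabilises the fork, stood at 27.9, 20.6 and 26.0 FPKM across controls 1 to 3, against 17.1, 17.7 and 16.2 under siRNA 1 to 3. Every siRNA value lay under every control under all 3 scalings (log2 fold change −0.51 ± 0.12 SE; limma, Benjamini-Hochberg adjusted p = 0.153). Clspn, the adaptor claspin that passes the stalled-fork signal to Chk1, stood at 6.99, 6.00 and 7.47 FPKM across the controls, against 5.53, 9.75 and 5.21 under the siRNA. The high value of siRNA library 2 put the siRNA mean level with the control mean (log2 fold change −0.04, SE 0.20), and with median-of-ratios scaling, quantile normalization or without the ribosomal RNA locus entries the sign turned. It also turned without control library 3, siRNA library 1 or siRNA library 3. Dtl, which targets Cdt1 for destruction, and Usp1, a deubiquitinase acting on PCNA, did not overlap between groups (−0.28 and −0.24). Ung, which removes uracil from DNA, overlapped (−0.15).

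G1/S regulators lay nearest to all genes after the single-strand binding genes, with a median of −0.17 and 5 of 6 below the median of all genes. Ccne1, the cyclin E1 that drives entry into S phase, stood at 9.74, 7.64 and 10.8 FPKM across controls 1 to 3, against 8.65, 8.16 and 9.01 under siRNA 1 to 3. Its siRNA values lay inside the control range (log2 fold change −0.10, SE 0.13), and its sign turned under median-of-ratios scaling, quantile normalization and without the ribosomal RNA locus entries. E2f8, a repressor among the E2F factors, stood at 11.01, 8.16 and 10.7 FPKM across the controls, against 6.82, 7.83 and 7.85 under the siRNA. These did not overlap (log2 fold change −0.36 ± 0.13 SE; limma, Benjamini-Hochberg adjusted p = 0.226). The cyclin gene Ccne2 (−0.20) and the activator gene E2f1 (−0.19) did not overlap, while the activator E2f2 (−0.15) and the repressor E2f7 (−0.13, with the sign turned without the ribosomal RNA locus entries) did.

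**Figure D5:**
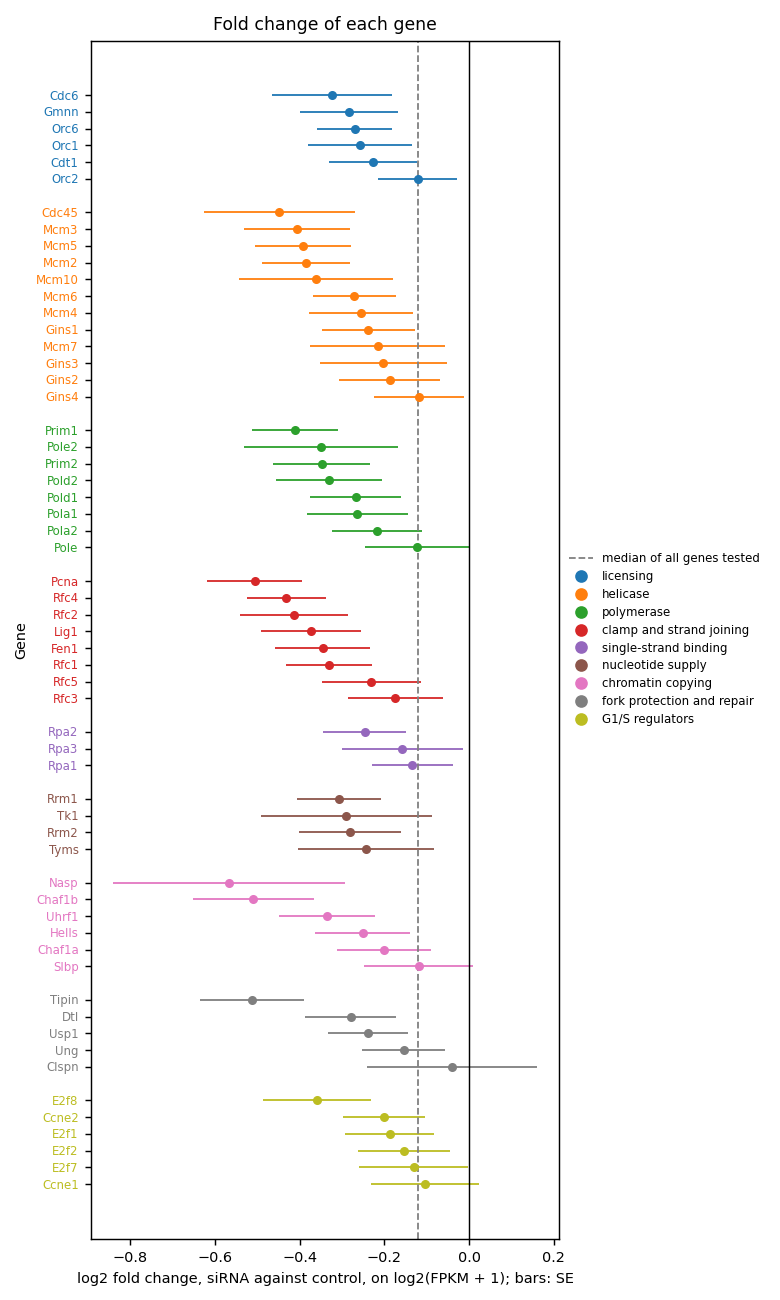
Points give the log2 fold change of each gene (siRNA against control, log2(FPKM + 1) scale), bars its SE, with colours for roles, a solid line at 0 and a dashed line at the median of all genes tested (−0.12). The clamp and strand-joining genes have the lowest role median (−0.36), and the 4 points right of the dashed line are Clspn, Ccne1, Gins4 and Slbp.

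Other genes of the same machinery, from a list of 66 with an entry, had a median log2 fold change of −0.19. Of 65 tested, 0 were called (limma with Benjamini-Hochberg adjustment). With library weights 3 were called lower, against 1.93% of all genes. At an unadjusted p below 0.05, 21 were lower and 0 higher, against 15.5% and 1.83% of all genes, and 41 lay below the median of all genes, with the list median at −0.07 relative to it. Fbxo5, the inhibitor Emi1 of the anaphase-promoting complex, had the smallest p of them (9.51 ± 1.32 and 6.41 ± 0.11 FPKM; SD, n = 3 each; limma, Benjamini-Hochberg adjusted p = 0.144). Ddb1, an adaptor of the ubiquitin ligase that acts with Dtl, was the most abundant (log2 fold change −0.16). The siRNA libraries lay entirely below the controls for 30 and entirely above for 1, E2f5, against 22.1% and 2.65% of all genes. With median-of-ratios scaling 14 lay below and 3 above (11.4% and 8.96% of all genes), and without the ribosomal RNA locus entries 5 below and 3 above (6.71% and 12.5%). Mitosis genes, whose products act after replication in the same cycling cells, had a median of −0.37. Of 47, 0 were called by the same test, and 18 were called lower with library weights, against 1.93% of all genes. At an unadjusted p below 0.05, 36 were lower and 0 higher, against 15.5% and 1.83% of all genes, and the list median lay at −0.25 relative to all genes. Relative to all genes the median mitosis gene stood at 0.02, −0.08 and 0.06 for controls 1 to 3 and at −0.24, −0.30 and −0.19 under siRNA 1 to 3, without overlap, under both other scalings too. Kif2c, a kinesin of chromosome segregation, had the smallest p (limma, Benjamini-Hochberg adjusted p = 0.0664), and Ube2c, of mitotic exit, was the most abundant (log2 fold change −0.26). These lists were not tested against one another.

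Some facts of the libraries stand beside these values. Library depth, estimated from the spacing of low values, ran from 18070000 to 21750000 fragments, at which 1 fragment of a 1 kb transcript is worth 0.0460 to 0.0553 FPKM. Markers of neural stem cells were present (12 of 12 at a mean of at least 1 FPKM in the controls and 11 with the siRNA). Their summed level was 1808 to 2228 FPKM in the controls and 1482 to 1801 FPKM with the siRNA, but this direction rested on Fabp7 (1206 ± 307 and 755 ± 148 FPKM; SD, n = 3 each). The other 11 markers summed to 683 to 950.1 FPKM in the controls and 890 to 1002 FPKM with the siRNA, and the siRNA mean was the higher for 5 of the 12 (Sox2, Sox1, Pax6, Vim and Notch1). Markers of astrocytes (6 of 6 in both groups; 179 to 319 and 164 to 396 FPKM) and the oligodendrocyte lineage (6 of 7; 758 to 823 and 606 to 759 FPKM) were also present. Of 10 neuron markers 5 and 4 reached 1 FPKM (125 to 136 and 99.1 to 112 FPKM). Markers of microglia, endothelium, mural cells and red blood cells reached 1 FPKM in 0 cases, with Itgam, Cx3cr1, Ptprc and Lum at 0 in every library. Of 10 liver markers, 9 reached 1 FPKM in the controls (38.2 to 61.7 FPKM summed) and 1 with the siRNA (1.98 to 2.22 FPKM). The part of these transcripts in the lower replication mRNA was not tested. Hipk2 mRNA, which is not a measure of the circle, had 33.2 ± 3.23 and 27.0 ± 2.78 FPKM (SD, n = 3 each).

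Reads of some members cannot be assigned with certainty. In GENCODE M21, exons of 18 members overlapped exons of a gene on the opposite strand, and although the library preparation marked the second strand with dUTP, no source used here says whether counting used strand. The overlap covered 78.8% of the exon bases of Fen1 (with Gm10143), 67.3% of Gins2 (with Gse1), 52.5% of Chaf1a (with Ubxn6) and 29.8% of Orc2 (with Nif3l1), and 3 members overlapped a gene on their own strand. Gm10143 had 9.71 ± 0.70 FPKM in control and 6.85 ± 1.16 in siRNA cells, and Gse1 7.00 ± 1.27 and 8.87 ± 1.14 FPKM (SD, n = 3 each).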

How the data were processed

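RNA was sequenced from 3 control and 3 circHIPK2 siRNA libraries. The authors deposited FPKM values, with HISAT, StringTie and edgeR and the mm9 build named per the submitters' processing notes. For versions, annotation and the use of strand or molecular identifiers, no source used here gives them. FPKM divides by all mapped fragments, so a transcript that takes a large share lowers all others. The deposited FPKM were log2-transformed after adding 1, keeping 13702 entries whose mean reached 1 FPKM. The siRNA and control groups entered limma 3.58.1 under R 4.3.3 (mean-variance trend, two-sided, Benjamini-Hochberg adjustment over all entries tested, called below 0.05). The fit was also run on simulated data with independent noise for each gene. Recovery was checked there only for changes larger than those of the members, so it does not cover changes of their size. Members and lists were chosen with earlier results of these data known. Within each role, values per library are given for the most abundant member and those with the lowest and highest log2 fold change; of the other lists, the most abundant and the smallest p are named. Tk1, Rfc4, Chaf1b and other members outside that rule were singled out after their values were seen. Depth came from low FPKM of genes with 1 transcript of at least 500 nt, of which 40.0% to 45.1% lay within 0.05 steps of a whole fragment, against 10% by chance, so it is approximate. Symbols were matched to RefSeq promoters of build GRCm38.p6 for 47 members. Alternatives covered pseudocount, filter, scaling, library weights, the replicate block and leaving out each library.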

Additional observations from a re-analysis of the deposited data

How the results depend on the processing

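Other pseudocounts (0.1, 0.5), both other filters, the 2 other scalings, quantile normalization, the replicate block and leaving out each library gave 0 called replication genes. With library weights 5 were called lower, with 3 other replication genes and 18 mitosis genes, and over all genes 55 were called higher and 265 lower. Over all genes the counts were otherwise 7 higher with no filter, 8 lower when the mean had to reach 5 FPKM, 9 higher with median-of-ratios scaling, and 4 higher and 12 lower with quantile normalization. Leaving out 1 library gave 2 to 15 higher and 6 to 23 lower. Relative to all genes, and with no filter, the list medians were −0.25 for the replication genes, −0.17 for the other replication genes and −0.35 for the mitosis genes. With 1 library left out they were −0.20 to −0.11, −0.087 to −0.041 and −0.28 to −0.22. Members whose groups do not overlap numbered 18 with median-of-ratios scaling (11.4% of all genes) and 4 without the ribosomal RNA locus entries (6.71%). With 1 library left out they numbered from 29 without control library 1 (27% of all genes) to 52 without control library 2 (36.4%), and the share of all genes ran from 24.1% to 42.4%. Without both control library 2 and siRNA library 3, a choice made after seeing the data, 3 genes were called higher and 8 lower, 53 members did not overlap (38.7% of all genes), and the members' relative median was −0.23.

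Log2 fold changes that changed sign were 0.066 for Clspn and 0.0094 for Ccne1 with median-of-ratios scaling. With quantile normalization they were 0.0034 for Orc2, 0.0019 for Rpa1, 0.066 for Clspn, 0.019 for Slbp, 0.014 for Ccne1 and 0.016 for Gins4. Without the ribosomal RNA locus entries they were 0.039 for Orc2, 0.0063 for E2f7, 0.032 for Rpa1, 0.11 for Clspn, 0.046 for Slbp, 0.029 for Pole, 0.055 for Ccne1 and 0.046 for Gins4. Clspn ranged from −0.29 (without siRNA library 2) to 0.10 with 1 library left out, turning sign at 0.019 without control library 3, 0.068 without siRNA library 1 and 0.10 without siRNA library 3, and stood at 0.026 without control library 2 and siRNA library 3. The cause of these changes was not tested.

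Deviations of same-numbered libraries from their group means correlated at 0.05, 0.02 and 0.13 over genes, the last being the highest of all 9 control and siRNA combinations. Control libraries 1 and 3 correlated best with their own number and control library 2 with siRNA library 1 (0.12). As not every same-numbered correlation passed 0.1, the numbers were not taken to pair the libraries. With the replicate block, 0 members were called, and 23 genes were called higher and 23 lower over all genes. Depth limits low members such as Orc1 most, and 3 libraries a group limit every test.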

Other observations

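The promoters of the replication genes differed in their motifs from those of the mitosis genes, described over RefSeq promoters (build GRCm38.p6) with no test. The CCAAT box (CCAAT, both strands) was in 63.6% of the 55 replication promoters and 72.1% of the 43 mitosis promoters, against 37.4% of all 32851 promoters of the same length. The CHR element (TTTGAA or TTCGAA, both strands), which late cell cycle genes are known for, was in 18.2% of the replication and 76.7% of the mitosis promoters, against 19.2% of all promoters. The E2F words were in 34.5% of the replication promoters and 9.30% of the mitosis promoters. In the 66 promoters of the other replication genes the shares were 37.9% for the CCAAT box, 21.2% for the CHR element and 24.2% for the E2F words. In the promoters of genes tested here they were 38.4%, 13.3% and 4.17%.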
